A study of Mus musculus with 4 samples.

Results

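The 20-Mb stretch of mouse chromosome 2 from 140 to 160 Mb (mm10, chr2:140000000-160000000) was described through its exome variants in 4 bone marrow samples. It was chosen by the variant allele fractions of these same samples, which differ there between samples, so counts, fractions and runs in the stretch are descriptions with no test. Members were single-nucleotide variants (SNVs) and small insertions or deletions (indels) found by both callers at the same position and with the same alleles. Both had to show at least 10 reads of depth, 3 or more reads with the variant and an allele fraction (variant reads over depth) of 0.1 or higher, and SpeedSeq a quality of at least 20. Over the 4 samples this gave 1907 variants in the stretch, 1725 SNVs and 182 indels, of 60602 in the whole series.

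The samples are c-Kit+ leukemia cells from the bone marrow of moribund E2-KO mice of C57BL/6 background, and exons of their genomic DNA were sequenced. The series title explains E2-KO as Nras-G12D with Ezh2 KO, so all 4 samples carry an activated Nras allele together with loss of Ezh2, the histone methyltransferase of Polycomb repressive complex 2. The labels give neither the drivers of these alleles nor the animals' ages, and no control group or matched normal tissue was analysed here, so inherited and somatic variants are not separated. Replicate numbers 1 to 4 only follow the order of listing, and nothing says whether the samples came from separate litters, so the spread between them may be technical in part.

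An inbred mouse strain has 2 near-identical copies of each autosome, so sequence of the reference strain yields few variants in an exome and sequence of another haplotype yields many, close together. Where a variant sits on 1 of the copies, the reads are shared between reference and variant base and the allele fraction lies near the middle of the scale. Where no copy with the reference base is left, nearly every read carries the variant, whether both copies are alike or 1 copy has been lost; allele fractions alone cannot tell these apart. Fractions of 0.65 or more are called upper range here and fractions under it lower range. The stretch is known for Asxl1 and Dnmt3b, regulators of chromatin and DNA methylation that are altered in human blood cancers, for the coat-colour gene a (nonagouti), and for a cluster of BPI fold genes, whose products are secreted lipid-binding proteins of the airway and mouth.

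The sequences below show what the state looks like at single loci. The first 4 are promoter windows of RefSeq (GRCm38.p6, the same build as mm10), 250 bases before to 50 bases after a gene start, chosen because they hold the most variants (Gm14199 and Bpifb4), belong to a listed gene (E2f1) or hold an indel next to an SNV close to the start (Fam83d), and written 5′ to 3′ on the strand of the gene. Capitals mark the reference bases at which a confident SNV, or the base next to a confident indel, was found. Gm14199 spans chr2:152991535-152991834 on the minus strand, Bpifb4 chr2:153940612-153940911 on the plus strand, E2f1 chr2:154569377-154569676 on the minus strand and Fam83d chr2:158767849-158768148 on the plus strand. The starts used for Bpifb4 and E2f1 lie inside the annotated spans of these genes (153938217-153963852 and 154559400-154569892). Both windows are thus part of the gene body and not upstream of the whole gene.
Gm14199: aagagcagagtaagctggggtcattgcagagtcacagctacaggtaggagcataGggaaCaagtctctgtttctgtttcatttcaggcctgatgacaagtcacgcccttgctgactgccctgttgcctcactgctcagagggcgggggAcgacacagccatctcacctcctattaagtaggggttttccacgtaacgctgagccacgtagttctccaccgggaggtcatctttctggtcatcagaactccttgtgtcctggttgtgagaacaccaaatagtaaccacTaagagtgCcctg
Bpifb4: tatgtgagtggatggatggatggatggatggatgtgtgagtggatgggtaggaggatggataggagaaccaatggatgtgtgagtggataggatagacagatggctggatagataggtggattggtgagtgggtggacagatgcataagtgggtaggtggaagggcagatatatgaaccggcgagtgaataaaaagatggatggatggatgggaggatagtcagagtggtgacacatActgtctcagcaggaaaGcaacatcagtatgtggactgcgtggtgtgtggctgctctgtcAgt
E2f1: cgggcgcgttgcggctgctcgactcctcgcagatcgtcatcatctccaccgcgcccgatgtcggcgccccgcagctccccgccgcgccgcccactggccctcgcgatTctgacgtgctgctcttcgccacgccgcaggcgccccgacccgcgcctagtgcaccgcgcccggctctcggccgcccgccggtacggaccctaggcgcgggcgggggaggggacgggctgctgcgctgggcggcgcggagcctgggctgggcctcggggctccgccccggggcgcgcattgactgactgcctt
Fam83d: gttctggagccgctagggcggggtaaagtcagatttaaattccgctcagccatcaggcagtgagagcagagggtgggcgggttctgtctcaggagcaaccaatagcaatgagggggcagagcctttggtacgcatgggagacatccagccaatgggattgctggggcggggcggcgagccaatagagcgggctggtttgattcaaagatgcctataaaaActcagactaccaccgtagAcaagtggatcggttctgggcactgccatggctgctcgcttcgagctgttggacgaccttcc

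The next 5 are long indels, shown on the plus strand from the callers' own alleles, with the base before the change in lower case and the inserted or deleted bases in capitals. The Sla2 insertion and the Dhx35 deletion are the 2 indels of 8 or more bases found in all 4 samples, the Asxl1 insertion lies in a listed blood gene, and the Bpifa6 pair lies close together and differs in state.
Insertion after chr2:156879406 in Sla2: gAAAAATGGAGA
Deletion of chr2:158820324-158820331 in Dhx35: tAGGATTGC
Insertion after chr2:153396910 in Asxl1: tGCCATTCATAGTG
Deletion of chr2:153984826-153984837 in Bpifa6: aCAGGATTGGATG
Insertion after chr2:153984923 in Bpifa6: aCCTGTTGAGGTT

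Where a change shown here was confident in several replicates, its fraction often differed between them. In Bpifb4, a BPI fold gene, the A-to-C change at 153940849 lay just before the start used, inside the gene body. It was on 15 of 35 reads in replicate 1, 24 of 24 reads in replicate 2 and 25 of 25 reads in replicate 4. In replicate 3 it was not a confident call. The other 2 Bpifb4 changes, 4 and 47 bases after that start, stood at 46.3% and 46.3% in replicate 1 and at 100% in replicates 2 and 4. In the window of E2f1, which encodes a transcription factor of S-phase entry, 1 SNV lay 143 bases before the start used, inside the gene body. It was on 7 of 17 reads in replicate 1, 7 of 10 reads in replicate 3 and 13 of 13 reads in replicate 4. Replicate 2 had no confident call there, although at least 1 caller listed the change, so its state at this base is not given.

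The Fam83d window (a gene of the mitotic spindle) held an SNV 12 bases before the start, on 10 of 14 reads in replicate 1, 13 of 13 in replicate 2, 10 of 29 in replicate 3 and 25 of 25 in replicate 4. A 1-base insertion followed position -31 from the start, on 11 of 11 reads in replicate 2, 5 of 22 in replicate 3 and 15 of 17 in replicate 4. The letters TATAAA stood 38 to 33 bases before the start, with a single base between them and the base that the insertion follows. That motif, searched on both strands, occurred in 13.6% of all 32851 promoter windows, so the match is a description only. In the Gm14199 window, 3 changes were confident in all 4 samples, and the 2 SNVs at 152991775 and 152991780 were confident only in replicates 2 and 4, where each was on all reads (21, 15, 18 and 12 reads deep).

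Over the whole stretch, variants fell in 12 of 374 promoter windows, belonging to 11 of 301 genes, which is 3.21% of windows against 1.42% of the 32851 windows of all genes. Some of these windows overlap and share changes. The variants of the stretch chose it, so nothing is read from that share. In all 24 comparisons between the callers and the RefSeq windows the reference base was the same, with a change in overlapping windows counted in each.

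Replicates 2 and 4 carried nearly all of their SNVs in the stretch with few or no reference reads. Replicates 1 and 3 carried many of the same SNVs beside the reference base. The 4 samples held 1397, 1197, 1356 and 1251 SNVs and 118, 126, 102 and 133 indels (replicates 1 to 4). The median SNV allele fraction was 0.467 for replicate 1, 1.00 for replicate 2, 0.375 for replicate 3 and 1.00 for replicate 4. Replicates 2 and 4 thus sat at the top of the scale and replicates 1 and 3 near its middle.

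In the upper range were 77 SNVs of replicate 1 (5.51%), with an exact Clopper-Pearson 95% interval of 4.37 to 6.84%. Replicate 2 had 1165 (97.3%, 96.2 to 98.2%), replicate 3 had 13 (0.959%, 0.511 to 1.63%) and replicate 4 had 1215 (97.1%, 96.0 to 98.0%). Among all SNVs of the series the same share was 24.6%, 24.1%, 27.4% and 52.4% (replicates 1 to 4). The stretch therefore lay below the series-wide share in replicates 1 and 3 and above it in replicates 2 and 4; since it was chosen by these fractions, nothing further is read from that. Intervals here cover counting error only, because reads are not independent molecules.

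**Figure D1:**
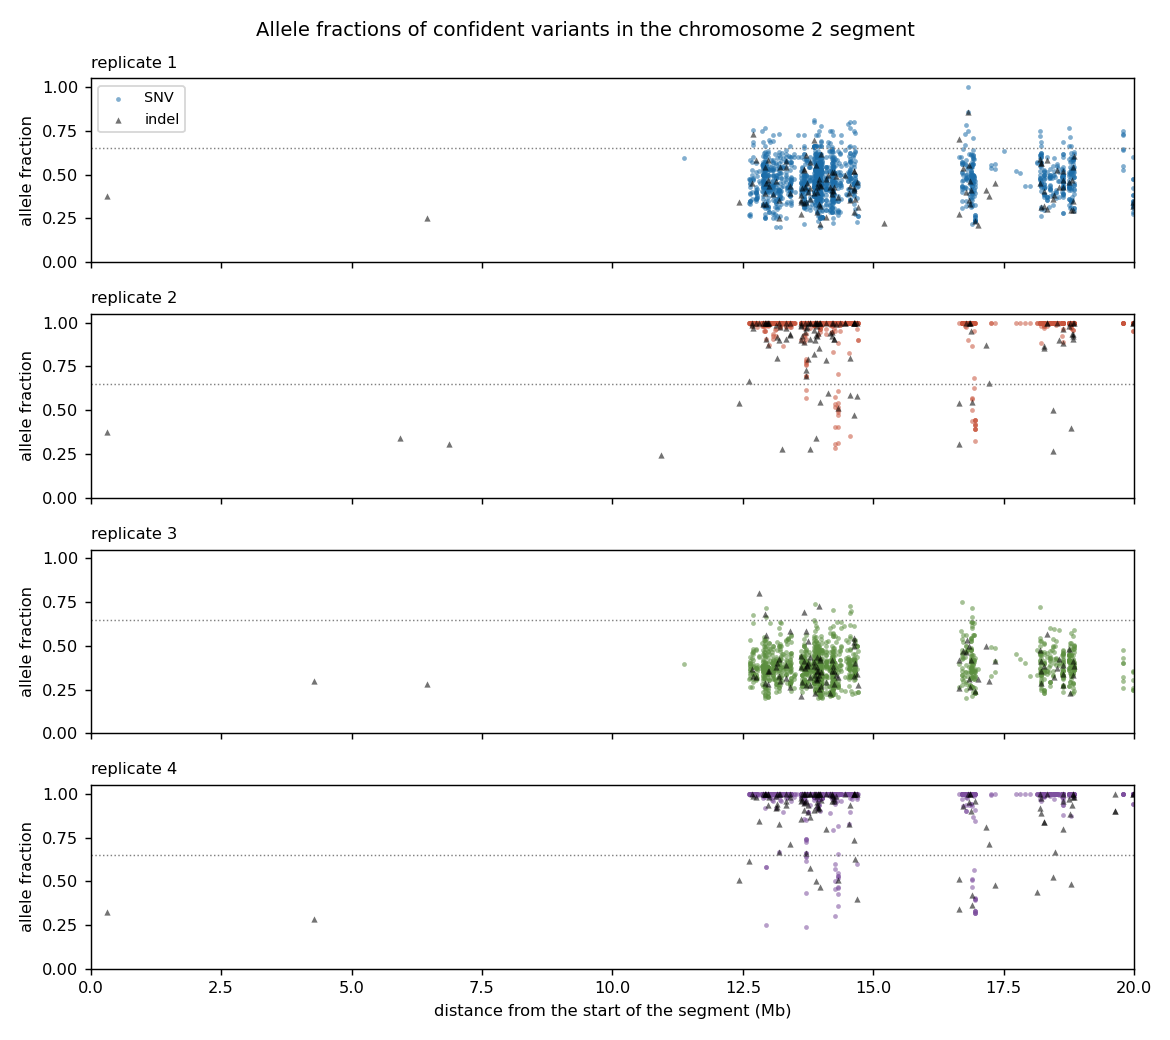
Allele fraction (variant reads over depth, y axis) of each confident SNV (dots) and indel (triangles) against distance from the start of the stretch in Mb (x axis), with 1 panel per replicate and a dotted line at 0.65. Replicates 2 and 4 lie along 1.00 (medians 1.00 and 1.00) and replicates 1 and 3 scatter around 0.467 and 0.375, with no SNV in any panel before 11.4 Mb.

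Genotype calls of both programs drew the same line, but they rest on the same reads as the fractions and are no separate evidence. SpeedSeq called 1, 1154, 0 and 1201 of the SNVs homozygous in replicates 1 to 4, and VarScan2 called 22, 1160, 3 and 1207. The numbers of SNVs with no reference read at all were 1, 1120, 0 and 1132. Among upper-range SNVs whose variant reads had a mean mapping quality of at least 50, reference reads were 196 of 46452 reads in replicate 2 (0.422%, interval 0.365 to 0.485%) and 291 of 53702 reads in replicate 4 (0.542%, interval 0.482 to 0.608%).

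The 2 samples near the middle of the scale differed from each other as they did elsewhere. The lower-range SNVs of the stretch had a median fraction of 0.459 in replicate 1, against 0.45 in the rest of its genome, and of 0.375 in replicate 3, against 0.384 in the rest of its genome. Replicate 3 was thus lower than replicate 1 both inside and outside the stretch. In the rest of the genome the lower-range medians of replicates 2 and 4 were 0.46 and 0.452.

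Many positions were common to all samples. Of the 1725 SNV sites, 840 were confident in all 4 samples, 334 in 3, 288 in 2 and 263 in 1. Of the 840 shared sites, 791 were lower range in replicates 1 and 3 and upper range in replicates 2 and 4. Sites confident in 1 sample alone were seldom missing from the others' lists: 247 of the 263 were listed by at least 1 caller, at some quality, in another sample, and 16 in none. Shared sites made up 67.7% of the sites of either sample for replicates 1 and 2, 76.9% for 1 and 3, 67.9% for 1 and 4, 64.3% for 2 and 3, 69.8% for 2 and 4, and 63.2% for 3 and 4.

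Where 3 samples agreed on a site and the fourth had no confident call, what the lists held for it differed between samples. Replicate 2 missed 106 such sites, of which SpeedSeq listed 104, and replicate 4 missed 100, of which SpeedSeq listed 98. In both, no site was absent from both lists. Replicate 1 missed 40, of which 17 were listed by neither program, and replicate 3 missed 88, of which 59 were listed by neither. Likewise, of the 151 sites confident in replicates 1 and 3 alone, SpeedSeq listed 145 in replicate 2 and 149 in replicate 4. Of the 38 sites confident in replicates 2 and 4 alone, SpeedSeq listed 6 in replicate 1 and 5 in replicate 3, and 22 and 24 of them were in neither list there.

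With SpeedSeq alone replicates 2 and 4 did not have the lower counts. Of SNVs in the stretch that passed the filters in SpeedSeq, VarScan2 did not list 17 of 1424 (1.19%) in replicate 1, 297 of 1536 (19.3%) in replicate 2, 10 of 1372 (0.729%) in replicate 3 and 343 of 1620 (21.2%) in replicate 4. Of the unlisted upper-range SNVs, 284 of 295 in replicate 2 and 329 of 338 in replicate 4 had at least 90% of their variant reads on 1 strand. Among such one-strand SNVs the unlisted share was 3.09%, 53.7%, 1.31% and 54.9% in replicates 1 to 4, and among the others it was 0.562%, 1.19%, 0.437% and 0.987%. In the rest of the genome VarScan2 left out 10.6%, 14.0%, 4.86% and 18.9% of the upper-range SNVs and 3.42%, 3.33%, 3.74% and 5.32% of the lower-range SNVs. Strand balance moved with the difference in counts between samples, and its part in it was not tested.

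**Figure D2:**
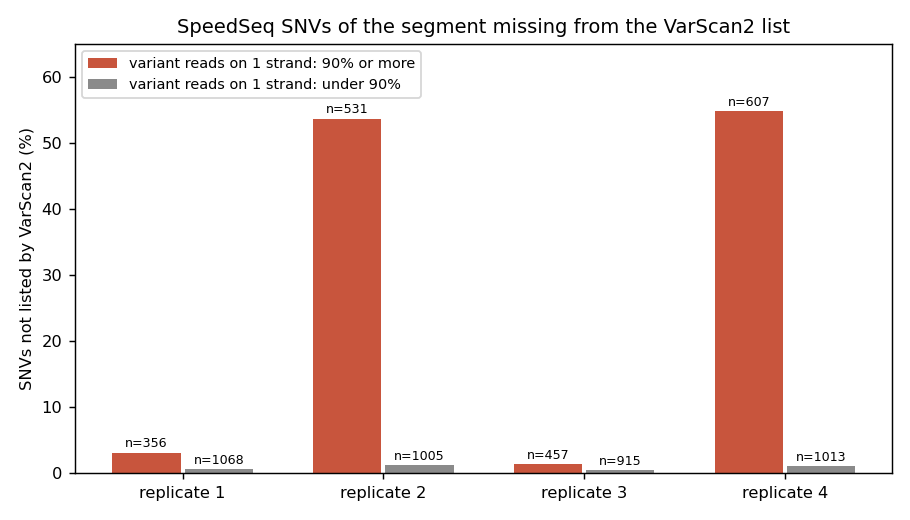
Share of SpeedSeq SNVs of the stretch that VarScan2 did not list (y axis, percent), by replicate, for SNVs with at least 90% of variant reads on 1 strand (left bars) and for the others (right bars), with the number of SNVs above each bar. The left bars stand at 53.7% and 54.9% in replicates 2 and 4 and at 3.09% and 1.31% in replicates 1 and 3, and the right bars lie between 0.437% and 1.19%.

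The variants did not fill the stretch evenly. From 140 Mb on, no confident SNV was found for 11.4 Mb in any sample, across 76 protein-coding genes from Esf1 to Gm14147. A lone SNV at 151375256, between Gm14147 and 4921509C19Rik, stood at 0.594 in replicate 1 and 0.393 in replicate 3 and was not confident in replicates 2 and 4. Another 1.25 Mb and 34 genes without an SNV followed. The files list variants only, so reference bases with coverage cannot be told from uncovered ones in these gaps.

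The left edge of the dense part was the same in 3 samples. Its first SNV lay at 152622985 in Defb25, a beta-defensin (antimicrobial peptide) gene, on 37 of 137 reads in replicate 1, 53 of 53 in replicate 2 and 55 of 55 in replicate 4. Replicate 3 began slightly further on, at 152623127, with 5 of 16 reads. Going left from there, the nearest SNVs outside the stretch lay at 122681907 in Slc30a4 in replicate 1, 121164052 in Zscan29 in replicate 2, 129210038 in Slc20a1 in replicate 3 and 119334585 in Dll4 in replicate 4.

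Split at SNV-free gaps of at least 200 kb, the dense part fell into 5 blocks. The first and largest ran from 152622985 to 154713682 (2090.7 kb) with 1266 SNV sites over 51 genes from Defb25 to Chmp4b, an ESCRT-III subunit of membrane scission. Its SNV counts were 1018, 892, 998 and 915 and its median fractions 0.462, 1.00, 0.373 and 1.00 in replicates 1 to 4. The second, 156632859 to 156996867, held 166 sites and 8 genes from Dlgap4 to the kinetochore gene Dsn1, at medians of 0.479, 1.00, 0.387 and 1.00. Only 6 sites lay in the third, 157253092 to 157502586, between Mroh8 and Src.

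The fourth block, 157737507 to 158851591, held 260 sites over 16 genes from Ctnnbl1 to Dhx35, an RNA helicase gene, at medians of 0.481, 1.00, 0.394 and 1.00. The last, 159777735 to 159978522, held 26 sites and no protein-coding gene, at medians of 0.383, 1.00, 0.32 and 1.00. In all 5 blocks replicates 2 and 4 had a median of 1.00 and replicates 1 and 3 one below 0.6. The blocks thus shared 1 state per sample. Since they were split on the SNVs of all 4 samples together, the gaps between them are SNV-free in each sample by construction.

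The widest inner gap, from 154713682 to 156632859 (1.92 Mb), covered 38 genes from Raly to Aar2. It holds the gene a at 154950599-155051012, whose nonagouti allele makes C57BL/6 mice black, and its neighbours Raly and Eif2s2 (RNA-binding and translation), Ahcy (methionine cycle) and Itch (a ubiquitin ligase). None of these 5 genes held a confident SNV in any sample, and only Itch held an indel. The gap ended inside Dlgap4, a postsynaptic scaffold gene, at 156632859 in all 4 samples, where the fraction was 0.60, 1.00, 0.393 and 1.00.

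The 160-Mb border did not end the pattern. The last SNV inside, at 159978522 between Dhx35 and Gm826, was on 9 of 19, 12 of 12, 6 of 24 and 15 of 15 reads, and the first outside, at 160619886 before Top1, on 29 of 47, 70 of 70, 34 of 84 and 90 of 90 reads (replicates 1 to 4). From 160 Mb to 164256289 the samples had 75, 61, 75 and 62 SNVs with medians of 0.50, 1.00, 0.385 and 1.00. Here too replicates 2 and 4 were at the top of the scale.

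Past that position the samples parted in another way. From there to 170406637 (6.15 Mb) replicate 1 held 420 SNVs (median 0.459) and replicate 3 held 423 (median 0.393), against 3 in replicate 2 and 4 in replicate 4. The variant-dense sequence ended at 170406637 in Bcas1, a myelin gene, in replicates 1 and 3. In replicates 2 and 4 the last SNV before the thin part lay at 164256289 in Svs3b, a seminal vesicle gene, on 77 of 77 and 78 of 78 reads. After it came only sites in Ctsa (164837574, and in replicate 4 also 164837589), Sulf2 (166075795) and Adnp (168182598). No SNV was found in any sample in the next 4 Mb. Replicates 2 and 4 thus shared a right edge, and replicates 1 and 3 shared another one 6.15 Mb further on.

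**Figure D3:**
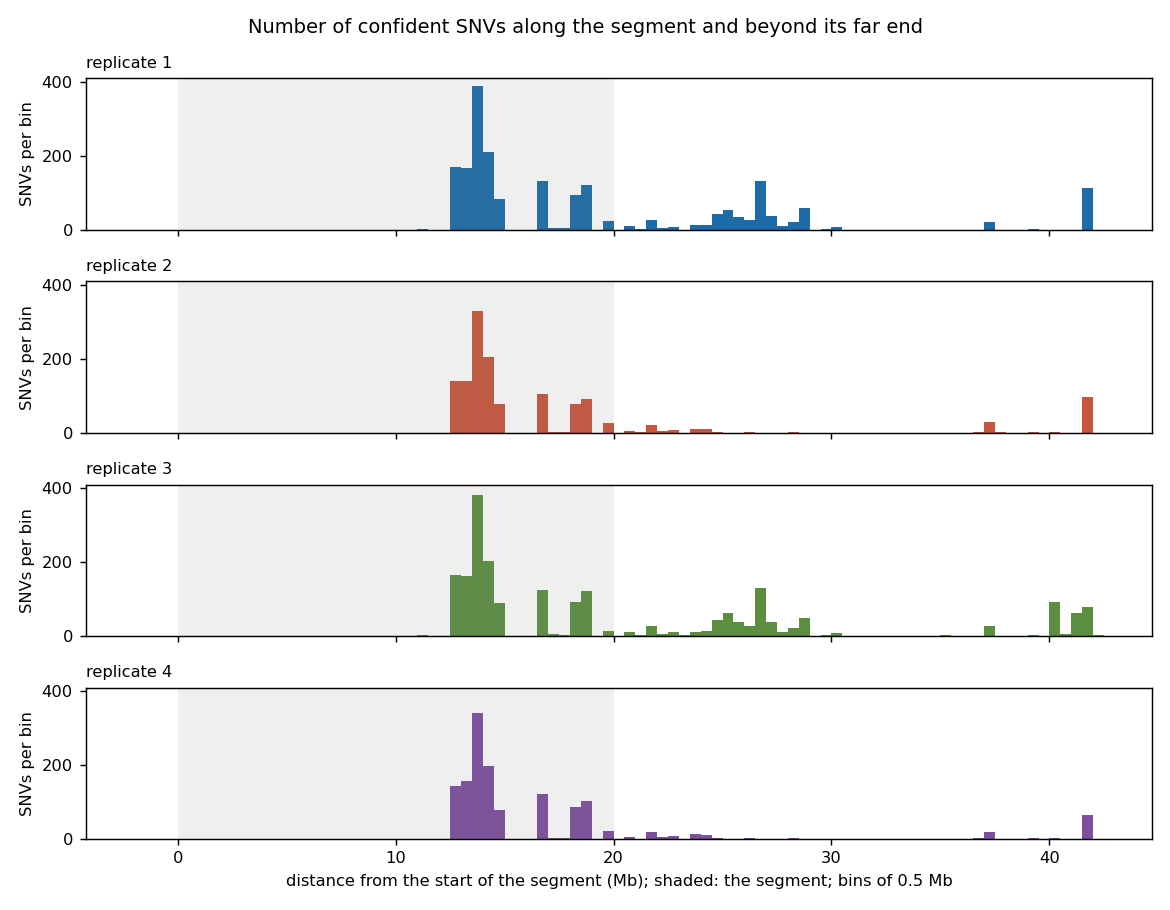
Number of confident SNVs per bin of 0.5 Mb (y axis) against distance from the start of the stretch in Mb (x axis), with 1 panel per replicate and the 20-Mb stretch shaded. Inside the shading the 4 replicates fill the same bins, except that the lone SNV at 11.4 Mb is found in replicates 1 and 3 alone, and between 24.3 and 30.4 Mb replicates 1 and 3 go on (420 and 423 SNVs) where replicates 2 and 4 have 3 and 4.

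Runs of 1 state were read by giving each SNV the majority state of the 11 SNVs centred on it. The longest upper-range run was 48.7 Mb in replicate 2 and 55.7 Mb in replicate 4, 99 bases in replicate 1 (9 SNVs in Sun5, a gene of the sperm nuclear envelope), and none was found in replicate 3. These lengths include wide stretches without any SNV: broken wherever neighbouring SNVs lay 2 Mb or more apart, the longest was 8.82 Mb in both replicates 2 and 4. Under that rule both began at 157253092 and ended at 166075795. In the same way replicate 3 was 1 lower-range run of 19.0 Mb from 151375256 to 170406637.

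Interruptions of the upper range in replicates 2 and 4 were few and lay in the same places. Replicate 2 had 32 lower-range SNVs and replicate 4 had 36. Of these, 20 and 19 had variant reads with a mean mapping quality under 50, a sign of reads that could be placed elsewhere, against 96 of 1165 and 102 of 1215 among their upper-range SNVs. Their median depth was 93.5 and 88 reads, against 34 and 38 at upper-range SNVs. They were thus deeper and less uniquely mapped than the rest, and whether this bears on their fraction was not tested.

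The 2 BPI fold genes Bpifb9a and Bpifb9b, which overlap the annotated span of Cdk5rap1, held 14 of these SNVs in replicate 2 and 13 in replicate 4. Those in Bpifb9b reached depths of 419 and 487 reads at median fractions of 0.496 and 0.495, and counts in such near-copies of a gene are uncertain. The other cluster lay in Ndrg3, a gene of the NDRG family, with 11 SNVs in each of the 2 samples, 10 of them between 156948259 and 156948471. There the variant reads of that narrow cluster were mapped at a quality of 60, on 30 of 76 reads in replicate 2 and 19 of 60 reads in replicate 4 at 156948259. Over the 7 Ndrg3 sites lower range in all 4 samples, the median fraction was 0.269, 0.424, 0.238 and 0.39 in replicates 1 to 4. By these medians replicates 2 and 4 were above replicates 1 and 3 as well, though far from 1.00. The order did not hold at every site: at 156948471 replicate 1 (0.467) stood above replicates 2 (0.326) and 4 (0.39).

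Sites in the lower range in all 4 samples numbered 18: 6 in Bpifb9b, 2 in Bpifb9a, 7 in Ndrg3 and 3 in no protein-coding gene. The opposite exceptions in replicates 1 and 3 were mostly at low depth. The 77 upper-range SNVs of replicate 1 had a median depth of 16 reads and a median fraction of 0.692, and the 13 of replicate 3 had 16 reads and 0.706. A depth of 30 or more was reached by 16 of those in replicate 1 and 1 in replicate 3, the last on 123 reads at 152687856 in H13. Among them, 10 of replicate 1 lay in Sun5 and 5 in Bpifa6. A single one reached 1.00, on 14 of 14 reads at 156817514.

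Of the 236 protein-coding genes in the stretch, 75 (31.8%) held a confident SNV in some sample, against 17.6% of all 21900 protein-coding genes. The variants of these genes chose the stretch, so nothing is read from that share. Before the first dense block ended 111 of the genes, and from there on 75 of 125 (60%) held an SNV. The genes held 1530 of the SNV sites and 195 lay outside them. Exons were not annotated in the sources used here, so no effect on a protein is given.

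Among genes of blood formation, leukaemia and chromatin, 8 of 20 held SNVs (40%), with 204 sites in all, and the other 12 held none. Every SNV in these 8 genes was upper range in replicates 2 (141 of 141) and 4 (149 of 149), against 8 of 166 in replicate 1 and 1 of 162 in replicate 3. Among all protein-coding genes of the stretch with an SNV, 72 of 73 genes had an upper-range median in each of replicates 2 and 4, and none had in replicates 1 and 3 (73 and 74 genes).

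The chromatin genes were the fullest examples. Asxl1 (153345830-153404007), a partner of the BAP1 deubiquitinase that acts on Polycomb-marked chromatin, held 25 SNV sites, 18 of them in all 4 samples. It had 22 SNVs at a median fraction of 0.44 in replicate 1, 22 at 1.00 in replicate 2, 23 at 0.388 in replicate 3 and 21 at 1.00 in replicate 4. The lowest single SNV of Asxl1 was 0.974 in replicate 2 and 0.989 in replicate 4, and the highest was 0.667 in replicate 1 and 0.545 in replicate 3. The samples' ranges in Asxl1 thus did not overlap between replicates 2 and 4 and replicates 1 and 3. Other genes of the stretch did overlap. In Tm9sf4 replicate 4 reached down to 0.667 and replicate 1 up to 0.733. In Ndrg3 replicate 2 reached down to 0.326 and replicate 3 up to 0.631. Since the fractions chose the stretch, nothing further is read from the separation.

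Dnmt3b (153649411-153687730), a de novo DNA methyltransferase, held 48 sites, the most of the list, with 37, 36, 39 and 31 SNVs at medians of 0.44, 1.00, 0.392 and 1.00. Its fractions reached down to 0.889 in replicate 2 and 0.857 in replicate 4, still above the highest of replicate 1, 0.727.

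Survival, spindle and transcription genes showed the same order. Bcl2l1, which encodes the anti-apoptotic Bcl-xL, held 8 sites at medians of 0.436, 1.00, 0.376 and 1.00. The mitotic spindle genes Tpx2 and Mapre1 held 41 and 9 sites, with Tpx2 at 0.50, 1.00, 0.366 and 1.00. The transcription regulators Cbfa2t2, a corepressor of the ETO family, and E2f1 held 25 and 8 sites, with E2f1 at 0.478, 1.00, 0.38 and 1.00. In each of these 5 genes replicates 2 and 4 stood at a median of 1.00 and replicates 1 and 3 at 0.50 or less.

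The 12 list members without an SNV lay mostly in the gaps. Kat14, Trib3, Thbd, Cd93, Xrn2 and Gins1 end before the first dense block, and Phf20 and Procr lie in the gap that holds the gene a. Samhd1 and Rbl1 lie in the gap between the second and the third block. Id1 lies inside the first block and Src inside the third, and neither held an SNV. Gins1 and Rbl1 each held an indel. H13, which encodes signal peptide peptidase and a minor histocompatibility antigen, was the only gene of 6 in the agouti and histocompatibility list with an SNV (16.7%). It had 9 SNVs at a median fraction of 0.571 in replicate 1, 7 at 1.00 in replicate 2, 17 at 0.394 in replicate 3 and 5 at 1.00 in replicate 4.

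All 15 genes of the BPI fold family held SNVs, 521 sites in all, and 13 of the 15 lie in the first block. Of the 51 protein-coding genes of that block, Id1 alone held no SNV, so holding SNVs there is not particular to the family. Bpifa6 had 86 sites, Bpifb4 79, and Bpifb1 and Bpifb3 51 each. With Cdk5rap1, a mitochondrial tRNA-modifying enzyme whose span overlaps 3 of the family and which had 96, these were the 5 genes with the most SNV sites. Upper-range SNVs of the family were 19 of 423 in replicate 1, 358 of 372 in replicate 2, 2 of 405 in replicate 3 and 362 of 375 in replicate 4. The members outside the first block were Bpi, a neutrophil granule protein against Gram-negative bacteria, with 22 sites, and Lbp, the lipopolysaccharide-binding protein of serum, with 7. Bpi had medians of 0.446, 1.00, 0.364 and 1.00, like the cluster.

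Other clusters were nearly or wholly free of SNVs. None of 11 cystatin genes (protease inhibitors) held one, and all 11 end before the first dense block. Of 11 beta-defensin genes only Defb25 held one, and 10 end before the block. Of 11 developmental transcription factors, Foxs1 (6 sites) and Tgif2 (4 sites) held SNVs and 9 end before the block. In the metabolic list Tgm2, a transglutaminase, was the only one of 8 (3 sites), and of 5 zinc finger genes Zfp341 alone held SNVs (41 sites). In all of these, each SNV was upper range in replicates 2 and 4.

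**Figure D4:**
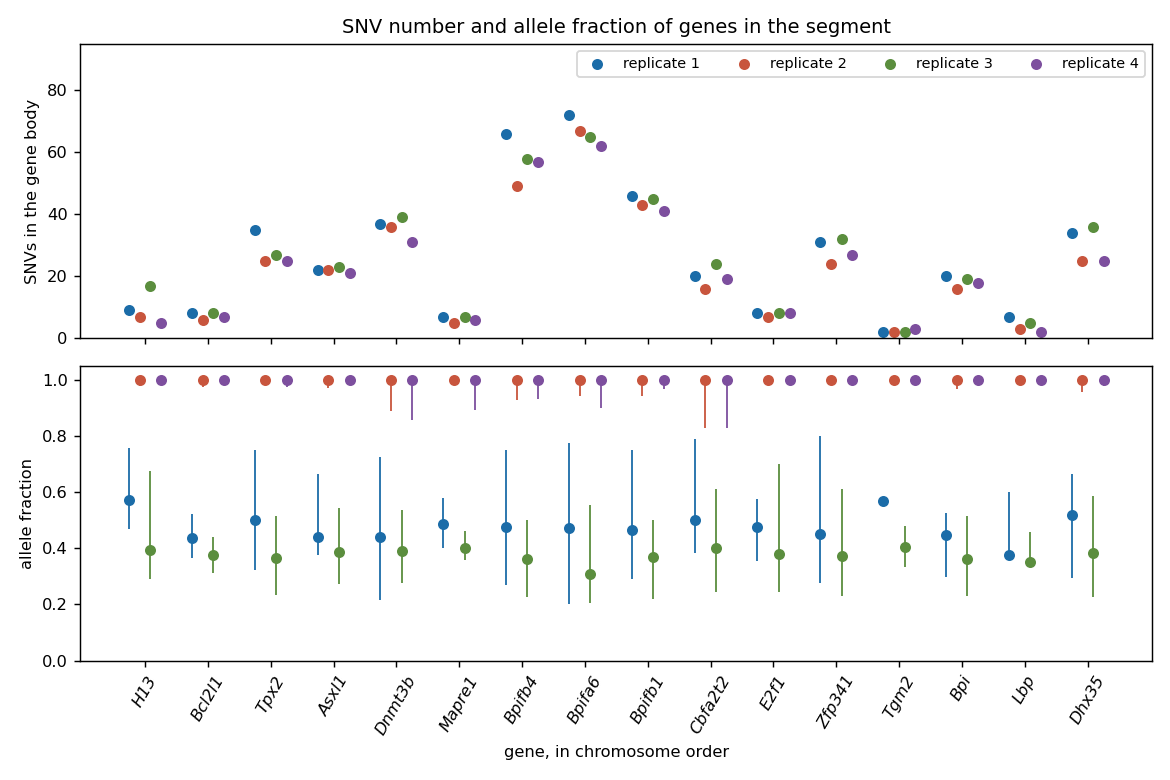
Number of SNVs in the gene body (upper panel) and median allele fraction with the lowest and highest value (lower panel, dots and lines) for 16 genes of the stretch in chromosome order, coloured by replicate. In the lower panel every drawn gene has replicates 2 and 4 at a median of 1.00, above the whole range of replicates 1 and 3 (Asxl1 at most 0.667 and 0.545). Genes not drawn include some whose ranges overlap, such as Tm9sf4 and Ndrg3. Among the drawn genes, the upper panel shows Bpifa6 and Bpifb4 with the most SNVs.

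Indels followed the SNVs, with more scatter. The median indel fraction was 0.427, 0.964, 0.361 and 0.962 in replicates 1 to 4. Of the 182 indel sites, 83 were insertions and 99 deletions, 91 changed 1 base (50%) and 23 changed a multiple of 3 bases. Deletions had medians of 0.45, 1.00, 0.385 and 0.987, and insertions 0.398, 0.925, 0.322 and 0.934, so that in each of the 4 samples insertions stood below deletions.

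Both long indels shared by all samples kept the SNV pattern. The Sla2 insertion of 11 bases, in a gene for an adaptor of lymphocyte receptor signalling, was on 14 of 34 reads in replicate 1, 19 of 20 in replicate 2, 18 of 43 in replicate 3 and 27 of 30 in replicate 4. The Dhx35 deletion of 8 bases was on 16 of 46, 23 of 23, 18 of 54 and 38 of 38 reads. The 13-base insertion in Asxl1 was confident in replicate 2 (15 of 16 reads) and replicate 4 (10 of 14 reads).

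Some long insertions read lower than the SNVs around them. In Bpifa6 the 12-base deletion was on 18 of 56, 19 of 19 and 24 of 24 reads in replicates 1, 2 and 4. The 12-base insertion close by was on 14 of 64, 18 of 33 and 15 of 32 reads. The SNVs within 1 kb of that insertion had median fractions of 39.6%, 100% and 100% in these samples. In Bpifb6 a 13-base insertion was likewise on 13 of 38 reads in replicate 2 and 22 of 44 in replicate 4, with nearby SNVs at 100% in both. Whether read placement around long insertions lowers these fractions was not tested.

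Before the dense part the stretch held indels of 1 base at fractions of 0.244 to 0.54 in Sel1l2, Mgme1, Crnkl1, Ralgapa2, Kiz, Gins1 and 6820408C15Rik, none of them in the upper range. An insertion of 20 bases in Defb25, after 152622943 and just before the first SNV of the dense part, was on 10 of 15 reads in replicate 2 (66.7%) and 8 of 13 reads in replicate 4 (61.5%).

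**Figure D5:**
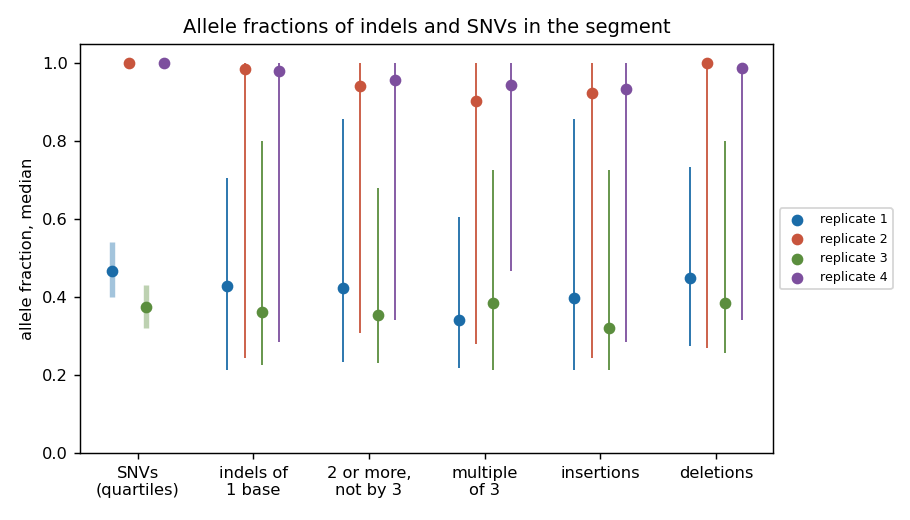
Median allele fraction (dots, y axis) of SNVs and of indel classes in the stretch by replicate, with lines from the lowest to the highest value for indels and thick bars from the first to the third quartile for SNVs. Insertions lie below deletions in each replicate (0.925 against 1.00 in replicate 2 and 0.398 against 0.45 in replicate 1).

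Substitution type and the number of indels were not used to choose the stretch, and depth entered the rule as a minimum. These measures were tested against the rest of the genome, within each sample. Transitions made up 75.8%, 77.8%, 76.3% and 76.3% of the SNVs in the stretch (replicates 1 to 4), against 68.6%, 68.8%, 70.2% and 68.4% in the rest of the genome. The difference was 7.54 ± 1.20 percentage points (SD, n = 4 samples, exact two-sided sign-flip permutation test, p = 0.13) and was positive in 4 of 4 samples. With 16 sign patterns this is the smallest p that 4 samples allow, and the samples share many sites, so the spread covers these samples only. With variant reads of mean mapping quality of at least 50 alone, the difference was 4.90 points.

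Indels per 100 SNVs were 8.45, 10.5, 7.52 and 10.6 in the stretch, against 11.5, 12.9, 12.8 and 14.7 in the rest of the genome. That difference was -3.71 ± 1.26 (SD, n = 4, the same exact permutation test, p = 0.13), again in 4 of 4 samples. It was -11.7 without calls that had another within 100 bases, -6.63 against the rest of chromosome 2 alone and -5.64 with VarScan2 alone.

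Depth was compared at sites confident in all 4 samples, 840 in the stretch and 8751 elsewhere. On the log2 scale, relative to each sample's own median, it was -0.39, -0.56, -0.32 and -0.42 in the stretch, against 0.05, 0.06, 0.04 and 0.04 elsewhere (replicates 1 to 4). The differences were thus -0.45, -0.63, -0.36 and -0.45, with a mean of -0.47 ± 0.11 (SD, n = 4, exact permutation test, p = 0.13). The stretch was shallower in all 4 samples. By allele state, the differences were -0.63 and -0.45 in replicates 2 and 4, and -0.45 and -0.36 in replicates 1 and 3. With a mean mapping quality of at least 50 the mean was -0.24. As background, losing 1 of 2 copies in every cell would lower log2 depth by 1 relative to a sample that kept both. Copy number was not measured here beyond this comparison, and loss of a copy was not tested.

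The depth filter bore on some sites. Median depth at the SNVs of the stretch was 43, 35, 46 and 39 reads, against 52, 47, 55 and 55 in the rest of the genome (replicates 1 to 4). SNVs in both lists with a depth of 8 to 9 reads, just outside the filter, numbered 68, 137, 32 and 119, and those just inside at 10 to 11 reads numbered 78, 90, 38 and 92. The replicates with a median fraction of 1.00 thus had the most SNVs just outside it.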

How the data were processed

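The exomes of 4 E2-KO samples were captured (Agilent SureSelect) and sequenced as 100-base read pairs, per the labels' protocols. SpeedSeq files were made with freeBayes 0.9.21 against mm10, separately per sample, and give depth and read counts per allele as whole reads, with a Phred-scaled quality score, per the file headers. VarScan2 tables give read counts and a percent frequency, per the file headers, with a p-value per site, per the file headers, that was not used. Builds mm10 and GRCm38 are named by the submitters' processing notes. Which aligner and which VarScan2 version were used, and how duplicates were treated, is not given in the sources used here. Tested on the files, VarScan2 lists no site under a coverage of 8 or a frequency of 20%, so lower fractions were not measurable.

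Multi-base SpeedSeq alleles were split into SNVs and indels by their alignment string, then matched to VarScan2 by position and alleles. Genes came from RefSeq's GRCm38 table (starts and ends only). Genes were named by role list, number of SNV sites, edges of runs, or promoter variants. Sun5, Ndrg3, Sla2, Sulf2, Adnp, Ctsa, Svs3b and Bcas1 were named after their values were seen. Some genes counted in the lists are not reported here by name. Members and lists were chosen with earlier results of these data known. All 4 samples form 1 group, so the tests compare the stretch with the rest of the autosomes within samples (exact sign-flip permutation over samples). The labels give no replicate numbers. Scripts for states and tests were tested on simulated data (Python 3.11.15, pandas 2.3.3, scipy 1.17.1). Alternatives were 1 caller alone, a depth of at least 20, no calls within 100 bases of another, an upper range from 0.75, windows of 5 and 31 SNVs, the rest of chromosome 2 alone, each replicate left out, and, chosen after seeing the data, a mapping quality of at least 50 and runs broken at 2 Mb.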

Additional observations from a re-analysis of the deposited data

How the results depend on the processing

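The upper-range share of each replicate stayed on its side of 50% under every alternative tried, between 1.5 and 6.22% in replicate 1, 95.1 and 98.9% in replicate 2, 0.0737 and 1.87% in replicate 3, and 94.7 and 98.5% in replicate 4. Leaving out calls with another within 100 bases cut the variants to 403, 418, 401 and 406 in replicates 1 to 4, fewer calls by construction. The longest upper-range run moved with several settings: with VarScan2 alone it was 7.32 Mb in replicate 2 and 7.66 Mb in replicate 4, with a mapping quality of at least 50 it was 10.9 Mb in replicate 2, and broken at 2 Mb it was 8.82 Mb in both, shorter by construction. The cause of the other moves was not tested. Under the other alternatives it was 19.5 to 78.1 Mb in replicate 2 and 37.6 to 78.1 Mb in replicate 4. The transition difference ranged from 4.90 to 9.80 points, the indel difference from -11.7 to -3.19 per 100 SNVs and the log2 depth difference from -0.55 to -0.24 over 10 alternatives each, without a change of direction. Leaving out 1 replicate at a time gave 7.07 to 8.02 points, -4.16 to -3.19 and -0.47 to -0.37, where the smallest p that 3 samples allow is 0.25. Fractions under 20% were not measurable with both callers, and variant-only lists leave the coverage of the SNV-free gaps unknown.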
